A study of Danio rerio with 16 samples.

Results

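Hearts of tert-mutant and wild-type adult zebrafish were compared 3 days after cryoinjury, over all 14500 genes of the deposited expression table. The comparison used 8 of the 16 libraries of the series, 4 labelled KO_Cryoinjury and 4 labelled WT_Cryoinjury, and the other 8 came from control hearts of the same 2 genotypes. The mutant fish were labelled as a Tert KO on AB/hu3430, hu3430 being an allele of tert, and the labels do not give their zygosity or the strain of the wild-type fish. All fish were 6 to 9 months old, and each library came from the polyA RNA of a pool of 3 hearts. The labels call the 4 libraries of a group biological replicates but do not name the families they came from. The p-values therefore measure the spread between pools. That spread was estimated over all 16 libraries, control hearts included.

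As background, tert encodes the reverse transcriptase subunit of telomerase, which adds telomere repeats to chromosome ends. Fish that lack it shorten their telomeres with age and lose dividing tissues first. Cryoinjury kills part of the ventricle with a cold probe. In the days that follow, macrophages and neutrophils enter the wound, fibroblasts and epicardial cells lay down matrix, and cardiomyocytes near the wound turn down their contractile and oxidative genes before they divide. The study title and design ask how this response runs without telomerase.

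Values are the authors' normalized units, and the reads behind them were recovered as whole multiples of 1 step per library. The injured mutant libraries held 5611576 to 8809769 reads and the injured wild-type libraries 7377322 to 14831664, so depth differed with genotype. The cardiomyocyte myosin light chain gene myl7 lay between 10390 and 13794 in all 8 libraries. Of 5 skin epithelium markers, krt5, epcam, cldni and tp63 were highest in mutant libraries 1 and 2, and icn was not, with 452 to 562 in the mutant and 425 to 514 in wild type. The basal keratin gene krt5 read 337, 887, 12 and 75.4 in injured mutant libraries 1 to 4 and 20.9, 9.44, 7.95 and 4.68 in the wild-type ones. The summed level of all 35 skin and epithelial genes was 3206 to 5083 in the mutant and 3002 to 3371 in the wild-type libraries, and none of the 5 markers was at 0 in an injured library. In a principal component analysis of the 8 libraries (500 genes of highest variance), the leading axis took 37.4% of the variance. On it mutant libraries 1 and 2 lay at 16.1 and 23.7, libraries 3 and 4 at -6.9 and 1.6, and the wild-type libraries at -10.8 to -5.4. Results are therefore also given without mutant libraries 1 and 2.

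Injured mutant hearts differed from injured wild-type hearts in 64 genes, 0.441% of the 14500 tested (limma on log2(value + 1), Benjamini-Hochberg adjusted p under 0.05). Of these, 42 were higher (0.29% of genes) and 22 lower (0.152%) in the mutant. Among those higher were the transcription factor genes irx2 and tbx5 and the receptor genes avpr1a, ednrab and gpr22. So were the Z-disc gene synpo2l, the mitochondrial creatine kinase gene ckmt2 and 3 of 68 fatty acid and citrate cycle genes. An MHC class I gene, the clock gene per2 and the scavenger receptor gene stab1 were among those lower. Differences were modest, with a median size of 0.73 on the log2(value + 1) scale. On that scale 9 higher and 8 lower genes differed by more than 1. It understates the fold change of low genes, so these are not counts of all genes beyond 2-fold. At an unadjusted p under 0.05, 947 genes were higher (6.53%) and 821 lower (5.66%), 12.2% together.

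**Figure D1:**
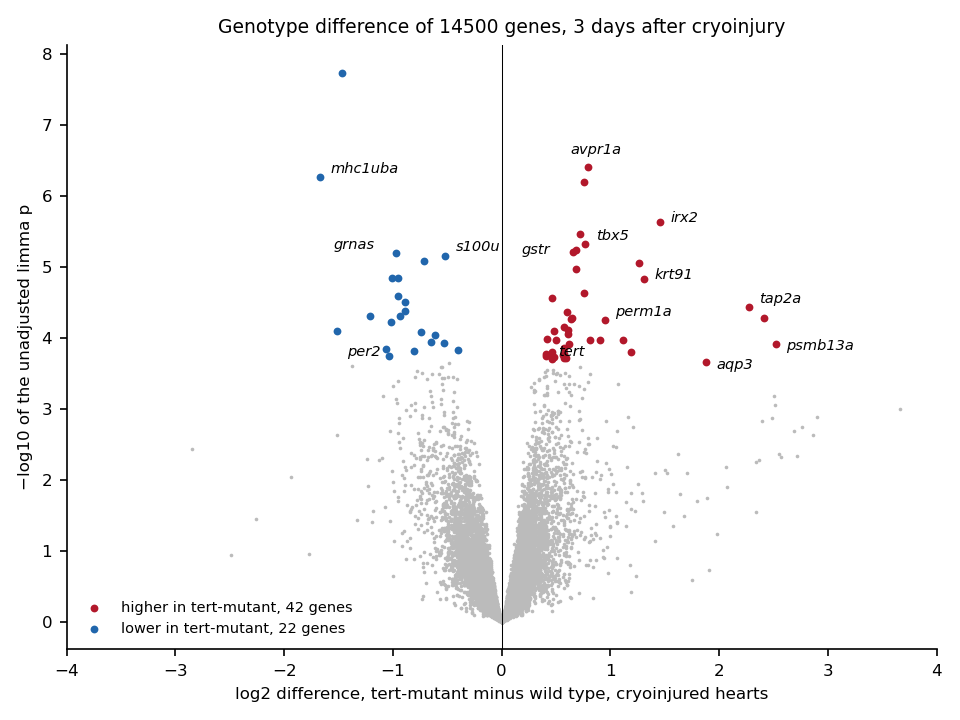
Each point is 1 of 14500 genes, with the difference between tert-mutant and wild-type cryoinjured hearts on the x axis (log2(value + 1) scale, 4 against 4 libraries) and −log10 of the unadjusted limma p on the y axis. The 42 genes higher in the mutant (red) and the 22 lower (blue) passed an adjusted p under 0.05, and grey genes did not.

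The libraries of the 2 genotypes did not overlap in any of the 64 genes. Over all genes, all 4 mutant libraries lay above all wild-type ones in 3.84% and below them in 4.01%. Of the 64 genes, 49 had a symbol and 15 only an Ensembl identifier. The edgeR quasi-likelihood test on recovered reads called 84 genes (0.579%), 55 higher and 29 lower, and shared 60 with limma. With no correction for composition, 38 genes were higher and 62 lower, so the higher share of calls went from 65.6% to 38% while the median of all genes shifted by -0.06, and all 64 genes kept their sign. Thinning every library to the same depth left 44 of the 64. A fit of the 8 injured libraries alone, without the spread of the control hearts, left 21.

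Many calls were lost when 1 injured library was left out, though all 64 genes kept their sign in each such fit. These fits hold fewer samples, so a lost call need not rest on the library removed. Where a call is given as lost without 1 library, that library is the one whose removal gave the highest adjusted p, and other removals could end the call too. Only 14 of the 64 genes were called in each of the 8 fits that left out 1 injured library, and 8 were called in none of them. The total fell to 10 higher and 9 lower without wild-type library 2, and to 16 higher and 5 lower without wild-type library 3. Without mutant libraries 1 and 2 together 5 of the 64 were called: avpr1a, gstr, sdk1 (ENSDARG00000078866), ENSDARG00000088491 and ENSDARG00000076927. Called in none of the 8 single removals were synpo2l, gapdh, ckmt2, pdcd4 and sat1 among genes named here. Called in 1 were syne1, acadm, acadsb, prox1, stab1, osgn1, ptpn11b, aqp3, sdk1 and tert, in 2 per2, col19a1, sdhb, ak1, gja3 and sult2st1, in 3 zeb2a, acadvl, perm1a, psmb9 and psmb13a, and in 4 tap2a. All 64 kept their sign without mutant libraries 1 and 2, and the median ratio of their log2 difference to that with all libraries was 0.95.

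Among transcription factors, irx2, tbx5, prox1 and zeb2a were higher in injured mutant hearts. The Iroquois gene irx2 (ENSDARG00000001785), whose family patterns the ventricle, read 23.8, 18.2, 13.2 and 14.1 in mutant libraries 1 to 4 and 7.74, 5.66, 4.62 and 4.44 in wild-type libraries. It was the called transcription factor gene with the largest difference (log2 1.46, SE 0.21, limma adjusted p = 0.00668). The T-box gene tbx5 (ENSDARG00000024894), needed for heart and fin development, read 37.7, 29.6, 24.9 and 33.3 in the mutant against 20.4, 17.4, 17 and 16.5 (0.77, SE 0.12, limma adjusted p = 0.00902). Every mutant value of both genes exceeded every wild-type value. The prospero-type homeobox gene prox1 (ENSDARG00000055158), which acts in cardiomyocytes and lymphatic endothelium, read 48.6 ± 6.71 against 32.2 ± 2.22 (SD, n = 4; 0.57, limma adjusted p = 0.0418). The zinc finger gene zeb2a (ENSDARG00000062338), a repressor active in mesenchymal cells, read 65.1 ± 11.5 against 42.2 ± 3.14 (0.60, limma adjusted p = 0.026).

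The calls of irx2 and tbx5 held in each fit that left out 1 library. Those of prox1 and zeb2a were lost in most of them, with limma adjusted p up to 0.126 and 0.0811, both without mutant library 1. With only the 8 injured libraries irx2 was called and tbx5 was not (limma adjusted p = 0.0314 and 0.0575). In bulk hearts, fewer cells of a type and less RNA per cell cannot be told apart, here and below. In control hearts irx2 was far more abundant, at 42.7 ± 15.4 in wild type and 71.6 ± 7.6 in the mutant, and tbx5 was at 65.7 ± 9.27 and 90.9 ± 3.77. The injured mutant hearts thus lay between the injured wild-type hearts and both control groups for these genes.

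The receptor genes avpr1a, ednrab and gpr22 were also higher. They belong to no list here and are set side by side after their values were seen. The vasotocin receptor gene avpr1a (ENSDARG00000077083) had the smallest p among higher genes, with 25.5, 26.6, 26 and 28.3 in the mutant and 14.7, 14.1, 14.8 and 16.2 in wild type (0.79, SE 0.10, limma adjusted p = 0.00229). Its 4 mutant libraries lay closely together, the 2 with high krt5 included. The endothelin receptor gene ednrab (ENSDARG00000062262) read 48, 61, 55.4 and 50 against 36, 32.4, 30.3 and 33.6 (0.68, SE 0.11, limma adjusted p = 0.0111). The orphan receptor gene gpr22 (ENSDARG00000004592), strongly expressed in heart, read 159, 131, 108 and 135 against 93.5, 79.8, 79.2 and 67.4 (0.72, SE 0.11, limma adjusted p = 0.00833). All 3 receptor calls held without any 1 injured library. With only the 8 injured libraries avpr1a and ednrab were called and gpr22 was not (limma adjusted p = 0.015, 0.0314 and 0.0679).

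The gap junction gene gja3 (ENSDARG00000021889), a connexin, was at 35.1 ± 5.31 in the mutant and 22.3 ± 1.43 in wild type (0.62, limma adjusted p = 0.0375). It was the single call among 36 ion channel and calcium handling genes, and it was lost without mutant library 1 (limma adjusted p = 0.121). A second connexin gene, gja5 (ENSDARG00000069450), stood just outside the threshold, with 38.3, 34.1, 33.2 and 33.6 in the mutant against 18.1, 27.4, 27.5 and 25.5 (0.50, limma adjusted p = 0.0578). So did vegfa (ENSDARG00000034700), the endothelial growth factor gene, with 149, 135, 134 and 141 against 97.1, 116, 94.3 and 95.9 (0.47, limma adjusted p = 0.0578).

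**Figure D2:**
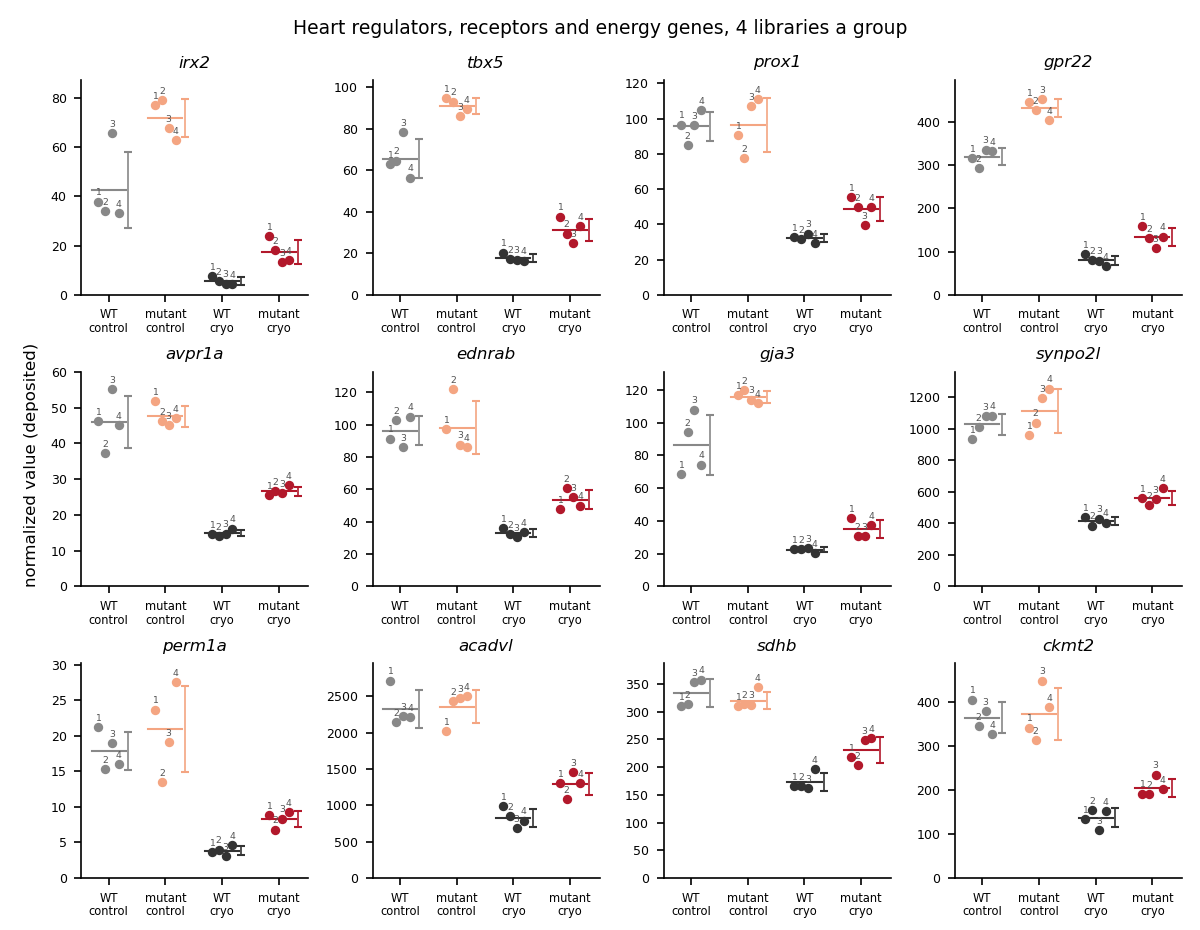
Deposited normalized values of 12 called genes in the 4 groups; points are libraries, numbered 1 to 4, the horizontal line is the group mean and the bar beside it ± 1 SD. In cryoinjured hearts the mutant values (red) lie above the wild-type values (dark grey) without overlap, and both lie below the means of the control groups.

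Of the genes for muscle cytoskeleton, Z-disc and nuclear anchoring, sync, synpo2l and syne1 were called higher, grouped here after their values were seen. The syncoilin gene sync (ENSDARG00000035944), an intermediate filament protein of striated muscle, read 25.5, 21.5, 30.9 and 22.2 in the mutant and 14.4, 13, 15.3 and 14.3 in wild type (0.76, SE 0.13, limma adjusted p = 0.0187, lost without wild-type library 2 or 4 or mutant library 1, at most 0.0731). The Z-disc gene synpo2l (ENSDARG00000078696) was at 563 ± 44 against 415 ± 25 (0.44, limma adjusted p = 0.0437). The nuclear envelope gene syne1, which ties nuclei to the cytoskeleton, was at 103 ± 6.64 against 76.9 ± 3.66 (0.42, limma adjusted p = 0.0365). Both calls were lost without wild-type library 2 (limma adjusted p = 0.134 and 0.116).

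Of the 57 genes in the sarcomere and Z-disc list, 2 were called, both higher: synpo2l and ckmt2 (ENSDARG00000069615). The second encodes a mitochondrial creatine kinase and not a part of the sarcomere or Z-disc. Over the list, 40 were higher and 17 lower without regard to a call, with a median of 0.07 (0.01 with no composition correction, -0.11 in control hearts), beside 50.4% higher and a median of 0 over all genes. Without mutant libraries 1 and 2 that median was 0.24, with 49 higher and 8 lower. The myosin light chain gene myl7 was at 12138 ± 1505 against 11732 ± 626 (0.04, limma adjusted p = 0.94). The slow myosin gene myh7ba read 313, 273, 253 and 312 against 247, 176, 232 and 158 and was not called (0.52, limma adjusted p = 0.103). The leiomodin gene lmod3 had the opposite sign (-0.44, limma adjusted p = 0.205).

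More energy metabolism genes were higher than lower in injured mutant hearts, by small differences, and few were called. Of 68 genes for burning fatty acids and for the citrate cycle, 3 were called, all higher and all acyl-CoA dehydrogenases, beside 0.29% of all genes called higher. The very long chain enzyme gene acadvl (ENSDARG00000016687) read 1306, 1087, 1455 and 1302 in the mutant and 986, 847, 681 and 788 in wild type (0.65, SE 0.12, limma adjusted p = 0.0272). The medium chain gene acadm (ENSDARG00000038900) was at 466 ± 63.2 against 332 ± 15 (0.48, limma adjusted p = 0.0327). The short branched chain gene acadsb (ENSDARG00000076780) was at 115 ± 10.1 against 80.6 ± 8.29 (0.50, limma adjusted p = 0.0365).

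The long-chain acyl-CoA synthetase gene acsl1b, which activates fatty acids, read 147, 118, 126 and 82.2 against 89.9, 68.4, 46.6 and 64.8 and was not called (0.81, limma adjusted p = 0.0578). Of the 68 list members, 53 were higher and 15 lower, with a median of 0.19. In control hearts the list had the other sign, with 49 of 68 lower in the mutant, 6 called lower, none called higher and a median of -0.08. Over all genes there, 7504 of 14500 were lower, 1.08% were called lower and 0.407% higher, and the median was -0.01. In injured hearts, 19 of the 68 (27.9%) had all mutant libraries above all wild-type ones, beside 3.84% of all genes, and none had them below. The regulator gene perm1a (ENSDARG00000094005), whose mammalian counterpart promotes oxidative metabolism in muscle, read 8.84, 6.79, 8.34 and 9.24 against 3.64, 3.97, 3.04 and 4.62 (0.95, SE 0.18, limma adjusted p = 0.0272).

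Of 81 respiratory chain genes, 1 was called. This was sdhb (ENSDARG00000075768), the iron-sulfur subunit of complex II, with 218, 204, 249 and 252 in the mutant and 166, 166, 162 and 197 in wild type (0.41, SE 0.09, limma adjusted p = 0.0437). The list leaned the same way as a whole: 74 were higher and 7 lower, and the median was 0.21. An unadjusted limma p under 0.05 was reached by 45 higher and no lower genes of the 81, beside 6.53% and 5.66% of all genes. In 27 (33.3%) all mutant libraries lay above all wild-type ones, beside 3.84% of all genes, and in none below. The complex I genes ndufa5 (78.4 ± 1.99 against 65 ± 0.893) and ndufb3 (85.6 ± 5.73 against 69.1 ± 2.79) were not called (0.27 and 0.30, limma adjusted p = 0.0666 and 0.0717). Nor was the complex IV gene cox6a1 (ENSDARG00000054588), at 552 ± 58.5 against 420 ± 22.6 (0.39, limma adjusted p = 0.0587).

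The medians of these lists moved with the mutant libraries used. Without mutant libraries 1 and 2 the respiratory chain median was 0.31 and the fatty acid median 0.33, both resting on mutant libraries 3 and 4 alone. Without mutant library 3 both medians were 0.16, and without library 4 they were 0.18 and 0.16. Mutant libraries 3 and 4 also had the highest summed level of sarcomere and Z-disc genes, 125464 and 130811, beside 98650 and 95260 in mutant libraries 1 and 2 and 102301 to 107836 in wild type. Library 3 lay at 18.7 on the second principal component, the others at -8.3 to 2.9. In it the skeletal muscle genes ckmb and atp2a1, a creatine kinase and a calcium pump, were at 47.2 and 20.7, beside 2.45 to 8.25 and 1.01 to 2.74 in the other 7. Its summed level of all 15 skeletal muscle genes was 3553, beside 2661 to 2966. The largest parts of that sum were ckma and eno3, which were abundant in all 16 libraries, control hearts included. The list was mixed: some members were highest in library 3, and others, such as tnni2, cacna1s and both ryr1 entries, were not. The 4 skeletal muscle markers chosen as defining were not found by symbol among the genes analysed here. As 2798 identifiers had no symbol, this does not show that the markers were absent. The part of these library differences in the metabolic medians was not tested. With no composition correction the respiratory chain and fatty acid medians were 0.15 and 0.13, beside -0.06 over all genes, and with equal depth 0.20 and 0.19. The mean log2 level of the respiratory chain genes was 7.07, 7.03, 7.25 and 7.21 in mutant libraries 1 to 4 and 6.87, 7.02, 6.89 and 7.01 in wild type. Control hearts had more of this RNA, from 7.56 to 7.82. There the genotype median was -0.05, with 58 of 81 lower and 1 called lower, beside 7504 of 14500 lower and 1.08% called lower over all genes.

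Enzymes of energy transfer gave the remaining metabolic calls. The adenylate kinase gene ak1 (ENSDARG00000001950) read 787, 641, 886 and 854 in the mutant against 566, 477, 476 and 545 in wild type (0.61, SE 0.12, limma adjusted p = 0.0342). The copy of ckmt2 already named was at 206 ± 20.7 against 137 ± 21.5 (0.59, limma adjusted p = 0.045). The glycolytic gene gapdh (ENSDARG00000043457) was at 7951 ± 807 against 5394 ± 414 (0.56, limma adjusted p = 0.0437) and was the only 1 of 47 glycolysis and glycogen genes called. The bifunctional regulator gene pfkfb4a, at 19.1 ± 2.41 against 13.9 ± 1.69, was not (0.44, limma adjusted p = 0.116). Of the 47, 32 were higher, with a median of 0.12. In control hearts 35 were lower, with a median of -0.15, beside 7504 of 14500 lower and a median of -0.01 over all genes.

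Each metabolic call was lost in most of the fits that left out a single injured library. These losses do not show that a call rested on the library removed, as such fits hold fewer samples. The values that follow are the highest for each gene. Without wild-type library 3 limma adjusted p was 0.0913 for acadvl, 0.0976 for acadm, 0.139 for sdhb and ckmt2, and 0.0928 for perm1a. Without wild-type library 2 it was 0.116 for acadsb and 0.113 for ak1, and without wild-type library 4 it was 0.129 for gapdh.

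**Figure D3:**
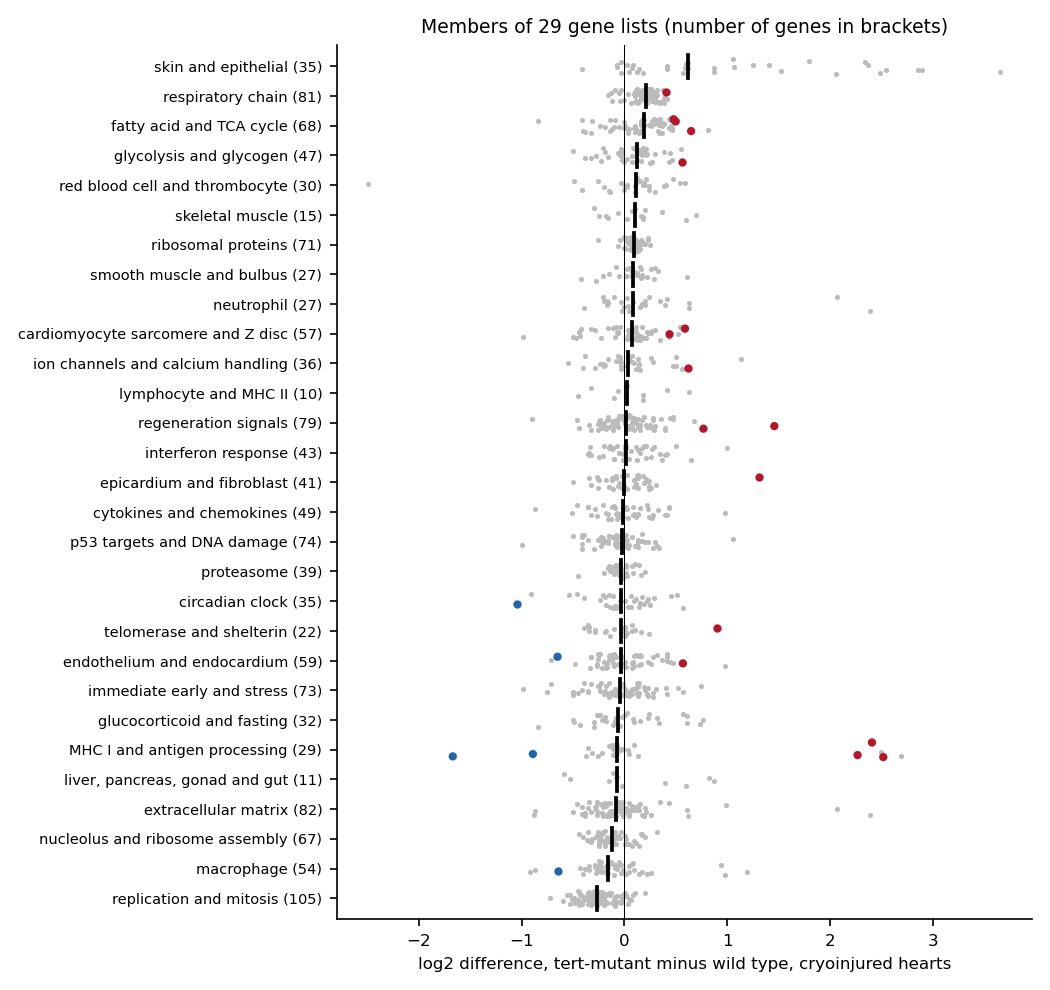
Members of 29 gene lists by their difference between tert-mutant and wild-type cryoinjured hearts (log2(value + 1) scale); grey points were not called, red were called higher, blue called lower, and the black bar is the list median. The respiratory chain median is 0.21 and the replication and mitosis median -0.27, while the skin and epithelial list reaches furthest to the right with no called gene.

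Genes of DNA replication and mitosis leaned the other way, and none was called. Of 105 such genes 95 were lower and 10 higher, with a median of -0.27, beside 49.6% lower over all genes. Of these 105, 9 had an unadjusted limma p under 0.05, all lower, beside 5.66% of all genes lower at that p. In 8 (7.62%) all mutant libraries lay below all wild-type ones, beside 4.01% of all genes. The kinetochore gene cenpf read 5.79, 3.61, 7.18 and 4.68 in the mutant and 10.9, 9.25, 9.72 and 7.25 in wild type (-0.72, SE 0.25, limma adjusted p = 0.226). The origin recognition gene orc6 was at 6.18 ± 1.01 against 9.27 ± 0.493 and the maintenance methyltransferase gene dnmt1 at 27.3 ± 2.67 against 35 ± 3.86 (limma adjusted p = 0.242 and 0.247).

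The proliferation markers mki67 and pcna, picked after their values were seen, overlapped between genotypes. The mki67 gene read 41, 47.4, 39.6 and 33.6 in the mutant and 55.4, 49.8, 38.7 and 56.7 in wild type (-0.30, limma adjusted p = 0.566). The pcna gene read 69.2, 90.6, 82.9 and 70.4 against 82.2, 104, 91.7 and 125 (-0.35, limma adjusted p = 0.418). The mean log2 level of the list also overlapped, at 3.02 to 3.44 in the mutant and 3.29 to 3.66 in wild type. The list median was -0.35 without mutant libraries 1 and 2, -0.33 with no composition correction, -0.27 at equal depth and -0.18 in control hearts.

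Nucleolar and ribosome assembly genes showed a smaller lean of the same sign. Of 67, 53 were lower and 14 higher, none was called, and the median was -0.12. Wholly below wild type lay 8 (11.9%), beside 4.01% of all genes. The ribosome assembly gene wdr12 was at 8.45 ± 0.858 against 11.9 ± 1.07 and the nucleostemin gene gnl3 at 31.8 ± 2.24 against 41 ± 2.94 (-0.44 and -0.36, limma adjusted p = 0.134 and 0.193). Ribosomal protein genes had the other sign, 68 of 71 higher with a median of 0.09, which was 0.03 with no composition correction, and none was called.

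Telomere and DNA damage genes gave a single call. In the telomerase and shelterin list of 22, tert itself was higher in the mutant (6.59 ± 0.281 against 3.21 ± 1.36; 0.90, SE 0.18, limma adjusted p = 0.0365). As background, hu3430 creates an early stop codon, so the reads still count and do not check the mutation. The call rested on 17 to 86 reads a library, was not made by edgeR (adjusted p = 0.0529) and was lost without wild-type library 2 (limma adjusted p = 0.113). The tankyrase gene tnks (ENSDARG00000062897) was at 43.3 ± 2.31 against 36.5 ± 1.84 and the telomere helicase gene rtel1 at 9.35 ± 0.889 against 11.6 ± 1.12 (limma adjusted p = 0.177 and 0.457). A second tnks entry (ENSDARG00000077650) overlapped between genotypes and was not called.

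None of 74 p53 target and DNA damage genes was called, and their median was -0.02, with 31 higher and 43 lower. The checkpoint mediator gene mdc1 read 11.6, 10.8, 10.3 and 9.58 against 13.3, 16, 15.7 and 12.7 (-0.41, limma adjusted p = 0.185). Its libraries did not overlap between genotypes, but the difference did not pass the threshold. Of the list, 3 genes (4.05%) lay wholly below wild type, near the 4.01% of all genes.

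Immune genes gave few calls outside the MHC. Of 54 macrophage genes 1 was called: stab1 (ENSDARG00000076484), a scavenger receptor of macrophages and of sinusoidal endothelium, was lower in the mutant. It read 96.1, 103, 97.5 and 121 in mutant libraries and 207, 146, 152 and 155 in wild type (-0.65, SE 0.13, limma adjusted p = 0.0374, and 0.112 without mutant library 1). In the list 40 were lower and 14 higher, and the median was -0.16. Wholly below wild type lay 6 (11.1%), beside 4.01% of all genes. The median was also -0.16 in control hearts. Genes of lipid and lysosome handling with small p were the transporter gene abca1 (155 ± 14.2 against 210 ± 16.5), the sterol carrier gene npc2 (154 ± 6.37 against 188 ± 16.9) and the cathepsin gene ctsk (244 ± 9.34 against 291 ± 20.7), none called (limma adjusted p = 0.122, 0.158 and 0.159).

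The neutrophil list of 27 had no limma call and a median of 0.08, which was -0.08 without mutant libraries 1 and 2. An unadjusted limma p under 0.05 was reached by 4 higher and no lower genes, beside 6.53% and 5.66% of all genes. Wholly above wild type lay 2 (7.41%), beside 3.84% of all genes. The list's gelatinase gene mmp9 read 106, 442, 21.7 and 39.6 in the mutant against 18.4, 10.1, 8.45 and 27.9, beside krt5 at 337, 887, 12 and 75.4. The edgeR test called mmp9 (edgeR adjusted p = 0.0428). The collagenase gene mmp13a reached 212 in mutant library 2 alone. Whether skin tissue accounts for the mmp9 values was not tested. The lists of cytokines and chemokines, lymphocytes and MHC class II, and interferon response had no call, with medians of -0.01, 0.03 and 0.02.

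MHC class I and antigen processing genes held 5 of the 64 calls in opposite directions. Of 29, the class I heavy chain genes mhc1uba and mhc1uca were lower, while the peptide transporter gene tap2a and the immunoproteasome genes psmb9 and psmb13a were higher. The mhc1uba gene (ENSDARG00000075963) read 8.39, 8.67, 9.18 and 20.2 in mutant libraries and 33.8, 32.5, 38.1 and 43.5 in wild type (-1.67, SE 0.22, limma adjusted p = 0.00229). The mhc1uca gene (ENSDARG00000092731) read 13, 11.6, 7.34 and 14.1 against 25.7, 17.2, 22 and 22.4 (-0.89, SE 0.16, limma adjusted p = 0.0214, lost without wild-type library 1, 3 or 4, at most 0.0714). Class I genes are close copies whose set varies between zebrafish haplotypes, so reads could be split between copies and a value is uncertain as the level of 1 gene.

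The immunoproteasome and transporter genes varied strongly within wild type. The tap2a gene (ENSDARG00000036787) read 10.4, 13.7, 5.51 and 4.45 in the mutant and 3.64, 0, 1.37 and 0 in wild type. The psmb9 gene (ENSDARG00000000656) read 12.5, 14, 7.01 and 5.46 against 4.57, 0, 1.37 and 0. The psmb13a gene read 16.2, 17.1, 8.51 and 7.24 against 7.04, 0, 1.37 and 0.18. Wild-type libraries 2 and 4 were at or near 0 for all 3, and mutant libraries 1 and 2 were highest.

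The 3 differences were 2.27, 2.41 and 2.52 (limma adjusted p = 0.0238, 0.0272 and 0.0375). They were not called by edgeR on reads (adjusted p = 0.0841, 0.124 and 0.135) nor without wild-type library 2 (limma adjusted p = 0.0854, 0.0934 and 0.116). The related genes psmb12 and psmb8 had the same pattern over libraries and were not called. They read 19.8, 19.4, 6.34 and 5.9, and 30.8, 34, 13.4 and 10.4, in the mutant, against 8.33, 0, 1.28 and 0, and 13.1, 0.189, 4.32 and 0.18, in wild type (2.50 and 2.69, limma adjusted p = 0.0752 and 0.134).

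**Figure D4:**
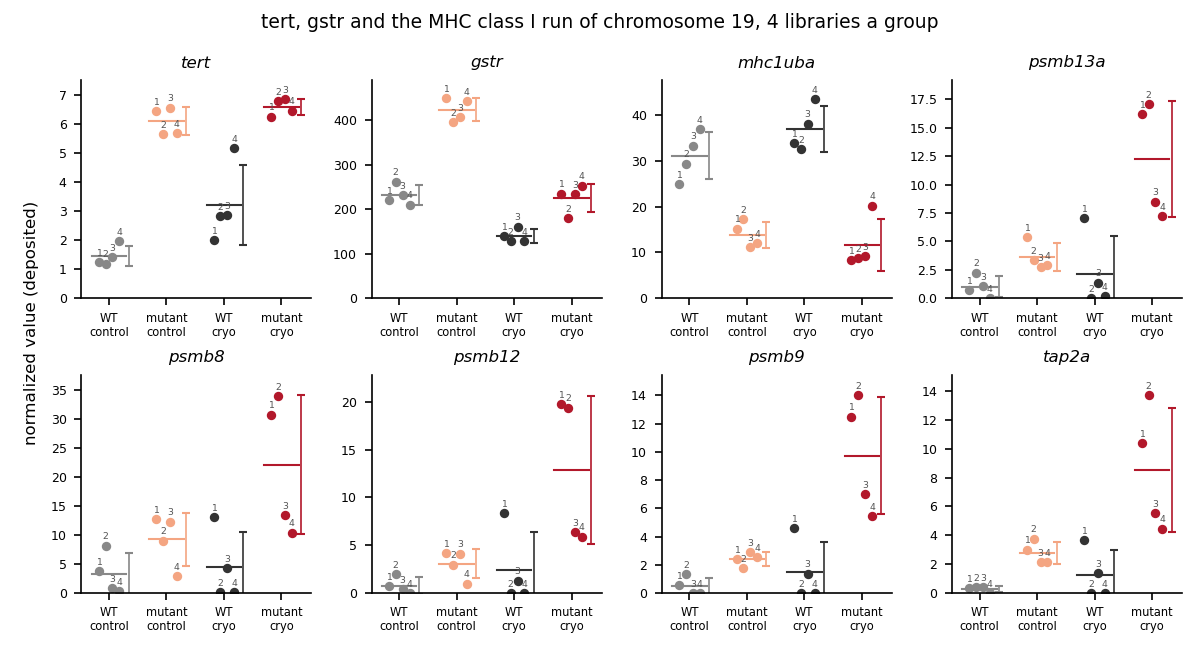
Deposited normalized values of tert, gstr, mhc1uba, psmb13a, psmb8, psmb12, psmb9 and tap2a in the 4 groups. Points are libraries, numbered 1 to 4, the line is the group mean and the bar ± 1 SD. The panels from mhc1uba to tap2a follow the gene order of chromosome 19, with psmb8 and psmb9 set in the places of psmb8a and psmb9a. Their symbols lack the copy letter, so these 2 places are uncertain. In cryoinjured hearts mhc1uba is lower in the mutant and psmb13a, psmb9 and tap2a are higher, while psmb8 and psmb12 overlap between genotypes and were not called, and wild-type libraries 2 and 4 are at or near 0 for psmb13a to tap2a.

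Several of these genes lie on the chromosome of tert. In RefSeq's gene table of assembly GRCz12tu, mhc1uba, psmb13a, psmb8a, psmb12, psmb9a and tap2a follow each other without another protein-coding gene between them, on chromosome 19, where tert also lies. The deposited identifiers of psmb8 and psmb9 carry a symbol without the copy letter. Of 363 tested genes placed on chromosome 19, 9 were called (2.48%), beside 22 of 8682 placed elsewhere (0.253%). The other 33 calls were among 5455 genes with no placed chromosome (0.605%), so these shares leave out many of the 64 calls. The 9 called on chromosome 19 were tert, gstr, krt91, mhc1uba, psmb13a, tap2a, s100u, sync and grnas. In control hearts 9 of 363 (2.48%) were called on chromosome 19, beside 1.36% elsewhere and 1.61% of genes not placed. Linked alleles that travel with a mutation and effects of the mutation itself cannot be told apart in this design.

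Among the called genes with a place in that order of protein-coding genes, which leaves out grnas, gstr was the closest to tert, 5 genes away. This glutathione transferase gene (ENSDARG00000042620) read 235, 179, 233 and 253 in the mutant and 139, 128, 161 and 128 in wild type (0.68, SE 0.11, limma adjusted p = 0.00902). Its call held in each fit with 1 injured library left out, but not with only the 8 injured libraries (limma adjusted p = 0.064). In control hearts it was higher too, at 424 ± 26.8 against 231 ± 22 (0.87, limma adjusted p = 0.000472). The gene grnas, a long non-coding RNA in RefSeq that overlaps the granulin genes grna.1 and grna.2, read 5.18, 6.07, 5.84 and 7.46 against 12.2, 12.8, 14.1 and 12.7 (-0.97, SE 0.15, limma adjusted p = 0.00902). The calcium-binding gene s100u read 48.5, 46, 55.1 and 47.4 against 66.7, 69.5, 78.4 and 70.4 (-0.52, SE 0.08, limma adjusted p = 0.00902). Both calls also held without any 1 injured library. Reads of grnas and of the genes it overlaps could not be told apart with certainty.

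The keratin gene krt91 (ENSDARG00000036830) read 134, 291, 122 and 124 in the mutant and 59.9, 78.9, 65.7 and 48.2 in wild type (1.31, SE 0.22, limma adjusted p = 0.0127, and 0.0579 without wild-type library 4). In mutant library 3, where krt5 was 12, krt91 was above all wild-type libraries, as in the other mutant libraries. The water channel gene aqp3, expressed in epithelia, read 18.3, 32.2, 5.01 and 9.91 against 2.7, 3.97, 1.96 and 3.18 (1.88, limma adjusted p = 0.0499). Mutant libraries 1 and 2, rich in krt5, held most of it, and without them its difference was 1.06 (limma adjusted p = 0.296). Whether skin tissue accounts for the krt91 or aqp3 values was not tested.

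Skin and epithelial genes had the largest median of the 29 lists: 30 of 35 were higher, the median was 0.62, and limma called none. The edgeR test called 7 of them. The tight junction gene cldni read 21.2, 53.3, 0.501 and 9.58 in the mutant and at most 0.938 in wild type (2.90, limma adjusted p = 0.109, edgeR adjusted p = 0.0276). The adhesion gene epcam read 10.1, 45.8, 0.167 and 3.9 against at most 1.06 (2.37, limma adjusted p = 0.188, edgeR adjusted p = 0.0457). The median without mutant libraries 1 and 2 was 0.25. The integrin gene itga6b did not overlap, at 28.2, 37.1, 19.4 and 15.5 against 8.91, 14, 10.3 and 10.3 (1.07, limma adjusted p = 0.0634).

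Among lower genes with a symbol, mhc1uba, grnas, s100u and dennd4a had the smallest p. The gene dennd4a (ENSDARG00000062721), an exchange factor for Rab proteins in membrane traffic, read 81.6, 95.1, 95.6 and 87.7 in the mutant and 163, 140, 150 and 138 in wild type (-0.71, SE 0.11, limma adjusted p = 0.00966). Its call held without any 1 injured library. In control hearts it was at 47 ± 6.64 and 49.2 ± 7.77, with a genotype difference of -0.06. The solute carrier gene slc24a5, known for skin pigmentation, was at 2.77 ± 0.46 against 6.63 ± 1.22 (-1.01, SE 0.17, limma adjusted p = 0.0127, lost without wild-type library 3 or mutant library 1, at most 0.0558). The growth inhibitor gene osgn1 was at 90.5 ± 13.9 against 130 ± 10.4 (-0.53, limma adjusted p = 0.0375), and the phosphatase gene ptpn11b at 16.1 ± 1.24 against 21.6 ± 1.12 (-0.40, limma adjusted p = 0.042). Both were lost without single libraries, with limma adjusted p up to 0.115 and 0.132.

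The clock gene per2 (ENSDARG00000034503), a light-induced repressor of the circadian loop, read 43.8, 72.6, 108 and 102 in mutant libraries and 137, 156, 175 and 172 in wild type (-1.04, SE 0.22, limma adjusted p = 0.0437). It was the only 1 of 35 clock genes called, and the call was lost without wild-type library 3 (limma adjusted p = 0.132). Without mutant libraries 1 and 2 the difference was -0.60 (limma adjusted p = 0.208). In control hearts per2 was lower in the mutant as well, at 21 ± 4.88 against 65 ± 8.78 (-1.60, limma adjusted p = 0.00149). Other clock genes with small p were the cryptochrome gene cry1 (ENSDARG00000011583), the photolyase-family gene cry5 and the PAR-bZIP gene dbpa, at -0.46, -0.91 and -0.54 (limma adjusted p = 0.142, 0.188 and 0.0701). The clock list was near even in sign, with 17 higher, 18 lower and a median of -0.03. Of its 35 genes, 3 higher and 5 lower had an unadjusted limma p under 0.05, beside 6.53% and 5.66% of all genes. Wholly below wild type lay 4 (11.4%) and wholly above 1 (2.86%), beside 4.01% and 3.84% of all genes. In control hearts 4 of the 35 were called lower and 1 higher, beside 1.08% and 0.407% of all genes. The list median there was -0.13, beside -0.01 over all genes. The labels give no hour of sampling.

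Other called genes were outside the lists. The sulfotransferase gene sult2st1 (ENSDARG00000033170) read 41.8, 33.8, 67.6 and 55.6 in the mutant and 28.6, 17.7, 22.1 and 15.8 in wild type (1.19, SE 0.25, limma adjusted p = 0.0427, and 0.116 without wild-type library 2). The gene fam222b (ENSDARG00000059886) read 37.2, 30.6, 27.4 and 29.8 against 19.4, 19.5, 17.7 and 20.5 (0.66, SE 0.10, limma adjusted p = 0.00902). Its call held without any 1 injured library, as did those of the unnamed genes ENSDARG00000076927 (104 ± 12.5 against 60.6 ± 2.96; 0.76) and ENSDARG00000009510 (17.3 ± 3.95 against 6.52 ± 0.922; 1.26). The collagen gene col19a1 and the Polycomb-family gene scml4 were lower at low levels, at 0.689 ± 0.165 against 2.44 ± 0.541 and at 4.69 ± 1.06 against 9.9 ± 1.19 (-1.02 and -0.95, limma adjusted p = 0.0274 and 0.0127). Each was lost without wild-type library 3 (limma adjusted p = 0.0976 and 0.0557). The polyamine acetyltransferase gene sat1 (ENSDARG00000035652) was at 10.4 ± 0.527 against 16.5 ± 1.29 (-0.61, limma adjusted p = 0.0349) and was called in no fit with 1 injured library left out.

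Matrix, epicardial and endothelial lists differed little. Of 82 extracellular matrix genes none was called and the median was -0.08, with 54 lower. The follistatin-like gene fstl1 (ENSDARG00000039576), a secreted protein of epicardium and fibroblasts, was at 714 ± 49.8 against 892 ± 63.3, and the hyaluronan link gene hapln1 at 71.7 ± 5.38 against 94.1 ± 14.2 (-0.32 and -0.38, limma adjusted p = 0.116 and 0.165). Among 41 epicardium and fibroblast genes krt91 was called, with a median of 0, and among 59 endothelial and endocardial genes prox1 was higher and stab1 lower, with a median of -0.03. The regeneration signal list of 79 had a median of 0.02 and 2 calls, irx2 and tbx5. In it 9 genes (11.4%) lay wholly above wild type and 2 (2.53%) wholly below, beside 3.84% and 4.01% of all genes. The growth factor receptor gene fgfr2, at 45 ± 3.67 against 57.3 ± 3.99, was not called (-0.34, limma adjusted p = 0.166).

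The remaining lists had no call. Medians were 0.08 for smooth muscle and bulbus, -0.06 for glucocorticoid and fasting, -0.04 for immediate early and stress, 0.11 for red blood cell and thrombocyte, -0.07 for liver, pancreas, gonad and gut, 0.10 for skeletal muscle and -0.03 for proteasome genes. The median was 0.04 for ion channels and calcium handling, -0.07 for MHC class I and antigen processing, -0.03 for clock and -0.03 for telomerase and shelterin genes, whose calls are given above. With no composition correction the medians of the ion channel, regeneration signal, lymphocyte and interferon lists were -0.03, -0.04, -0.03 and -0.04. In the stress list the AP-1 gene fosl1 read 12.4, 23.7, 19.9 and 23.9 against 28.3, 38.2, 30.6 and 33.2 (-0.71, limma adjusted p = 0.258). In the fasting list the muscle ubiquitin ligase gene trim63b read 64.5, 37.3, 43.4 and 43.5 against 33, 27.8, 28.7 and 30.6 (0.61, limma adjusted p = 0.146).

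The 64 genes were also read in control hearts. No library is shared between the 2 genotype comparisons, but both p-values use the same spread per gene, estimated over all 16 libraries, so the counts by p are not independent. There the genotypes differed in 215 genes (1.48%), 59 higher (0.407%) and 156 lower (1.08%) in the mutant. Of the 64 genes, 63 (98.4%) had the same sign in control hearts, beside 59.6% of all genes. The exception was sdhb, at -0.06. In 42 of them the control difference had the same sign and an unadjusted p under 0.05, which 6.95% of all genes reached as higher and 8.9% as lower. The genes called in both numbered 11, which is 17.2% of the calls in injured hearts and 5.12% of those in control hearts.

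The genes called in both were mhc1uba, grnas, s100u, per2, gstr, tert, pdcd4, fam222b (ENSDARG00000059886), ENSDARG00000088491, ENSDARG00000034243 and ENSDARG00000092121. The smallest p of the whole comparison belonged to ENSDARG00000088491, which has no symbol. It read 9, 6.79, 8.18 and 9.13 in injured mutant libraries and 25.9, 25.7, 23.5 and 23.4 in wild type (-1.47, SE 0.15, limma adjusted p = 0.000263). In control hearts it was at 8.19 ± 2.21 against 42.4 ± 4.97 (-2.27, limma adjusted p = 3.37e-07). The translation inhibitor gene pdcd4 differed by 0.57 in injured and 0.58 in control hearts (limma adjusted p = 0.045 and 0.0243), and its call in injured hearts was lost in each fit with 1 injured library left out.

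**Figure D5:**
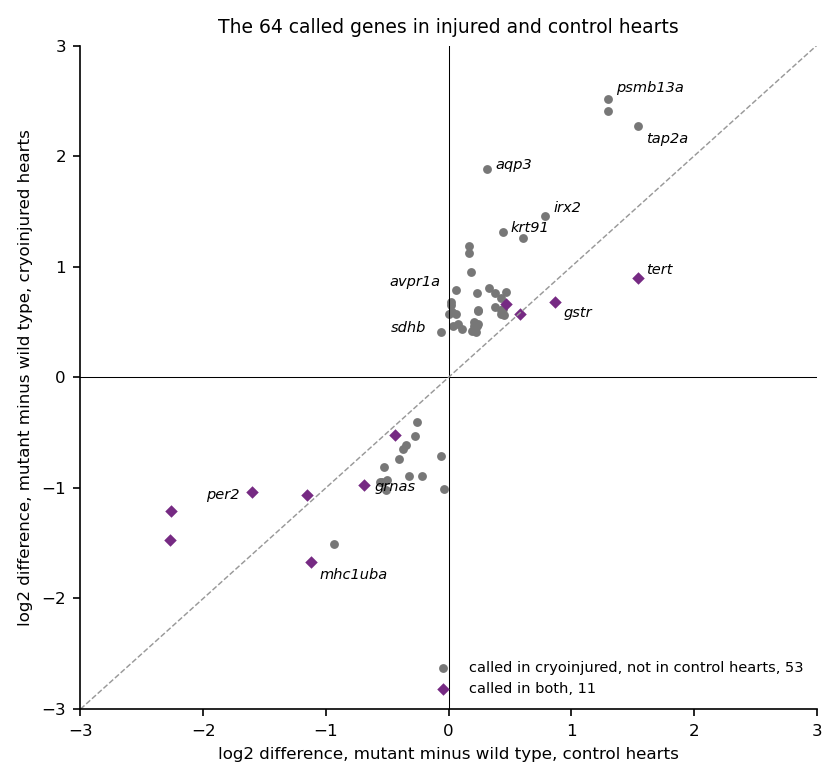
The 64 genes called in cryoinjured hearts, by their genotype difference in control hearts (x axis) and in cryoinjured hearts (y axis), both on the log2(value + 1) scale from separate libraries; the dashed line marks equal differences. Purple diamonds are the 11 genes also called in control hearts, and 63 of 64 genes have the same sign on both axes.

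Other genes differed in injured hearts with little difference in control hearts. The genotype difference in control hearts was 0.06 for avpr1a, 0.02 for ednrab, 0.02 for acadvl, 0.03 for ckmt2, 0 for prox1 and -0.06 for dennd4a, against 0.79, 0.68, 0.65, 0.59, 0.57 and -0.71 in injured hearts. The test of that change, the interaction of genotype and injury, passed for none of the 14500 genes with limma, edgeR or limma voom, and 1191 (8.21%) had an unadjusted limma p under 0.05. DESeq2 called 20 genes, of which avpr1a was 1 (interaction 0.73, SE 0.14, limma adjusted p = 0.207). Of these 20, avpr1a alone was called by limma in injured hearts. Most of the others were called by limma in control hearts and not in injured ones. A genotype effect restricted to injured hearts was therefore not shown for any of these genes with limma.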

How the data were processed

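The deposited table held normalized signal per gene, made by the authors before deposit, for 14500 Ensembl genes in 16 columns, 1 per library, and 0 value columns were left unused. The submitters' processing notes list the tools RSEM 1.2.3, CASAVA 1.8.2 and cutadapt and the build Zv9, without their order. How the values were scaled is not stated there. Every value was a whole multiple of 1 step per library within 0.01 read, which gave the recovered reads. The table starts above the lowest genes, with a 4th highest value of at least 1.76. The library kit is not strand-specific, and reads of a gene and its antisense partner count together.

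Symbols came from a table of gene names (11702 identifiers matched, 1219 sharing a symbol, then given with the identifier), and many are symbols of human counterparts. Chromosomes of 9045 genes came from RefSeq GRCz12tu by symbol, without coordinates.

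Sample titles gave the groups. Differences were tested by limma-trend (limma 3.58.1, R 4.3.3) on log2(value + 1), with 4 group means over all 16 libraries (12 residual and 5.12 prior degrees of freedom) and Benjamini-Hochberg adjustment over 14500 genes. Differences on this scale understate those of low genes. The edgeR 4.0.16 quasi-likelihood test, limma voom and DESeq2 1.42.0 were run on recovered reads. Other alternatives were size factors, no composition correction, pseudocounts of 0.5 and 10, a filter of 5 units in 4 libraries, the 8 injured libraries alone, a replicate block, a threshold of 0.01, leaving out each library, and leaving out mutant libraries 1 and 2. Thinning to 5611576 reads and leaving out each control library were added after the data were seen.

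The 29 gene lists (1429 of 2081 names matched, 18.3 to 86.7% of a list) and the comparison itself were chosen with earlier results of these data known, and lists are described by counts and medians without a test. The rule for named genes took tert, up to 15 highest and 15 lowest called genes with a symbol, a mean above the median gene and no overlap between genotypes, and up to 4 members of each list with the smallest p. Of 111 genes with values in the text, 82 came from this rule and the others were chosen after their values were seen. On simulated counts of this comparison (14500 genes), 52.2% of genes changed 1.5-fold, 91% of those changed 2-fold and 98.5% of those changed 4-fold were recovered, with 6 false calls. The changed genes were all drawn from those with a mean above the median gene. Counts were drawn independently, with no difference between libraries of a group shared by many genes. The rates therefore do not cover lower genes or such library differences. No injured library was a copy of another of its group: such pairs had 8.5 to 19.2 times the chi-square that sampling noise gives. Pairs of control libraries and pairs across groups were not compared in this way.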

Additional observations from a re-analysis of the deposited data

Results flagged for a closer look

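In cryoinjured hearts, 230 groups of 4 libraries were screened for a library that stood apart from the other 3 by more of the group's range than Dixon's critical value for groups of 4. It found 16, and chance alone gives about 1 in 20 groups.

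Among wild-type libraries, psmb12 was at 8.33 in library 1 against 0 to 1.28 in the others, and mmp13a at 9.26 in library 1 against 2.45 to 3.6. The stab1 gene was at 207 in library 1 against 146 to 155, and sdhb at 197 in library 4 against 162 to 166. Library 3 held the highest slc24a5 (8.45 against 5.85 to 6.22), scml4 (11.7 against 9.25 to 9.41) and tmem178a (36.1 against 31.4 to 32). The icn gene was lowest in library 1, at 425 against 499 to 514. The vegfa gene was at 116 in library 2 against 94.3 to 97.1.

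Among mutant libraries, library 2 stood apart for mmp13a (212 against 4.45 to 14.2) and krt91 (291 against 122 to 134), and it also had the highest krt5 of all 8. Library 4 stood apart for mhc1uba (20.2 against 8.39 to 9.18) and dcn (308 against 257 to 259), and library 1 for syne1 (113 against 99 to 100). Library 3 stood apart for the skeletal muscle genes ckmb (47.2 against 3.35 to 6.9) and atp2a1 (20.7 against 1.01 to 1.52). None of these values was given an explanation or a test.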

How the results depend on the processing

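The main counts were 42 higher and 22 lower genes, with 20 list members called. They moved with a pseudocount of 10 (25 higher), with only the 8 injured libraries (11 higher, 14 lower, 2 list members), with no composition correction (62 lower), with DESeq2 (136 higher, 79 lower, 56 list members), at adjusted p under 0.01 (8 higher, 5 lower, 3 list members) and without mutant libraries 1 and 2 (4 higher, 1 lower, 0 list members). Thinning gave 12 list members. Leaving out 1 library gave 10 to 51 higher, 5 to 40 lower and 5 to 24 list members. Of the 52 called genes named in the text, 15 were called with only the 8 injured libraries, 5 without mutant libraries 1 and 2, and 17 to 31 with 1 library left out. Chromosome 19 held 9 calls, 4 with only the 8 injured libraries, 1 without mutant libraries 1 and 2, and 5 to 9 with 1 library left out. Fits that leave libraries out hold fewer samples. All 64 genes kept their sign with each injured library left out. Of the genes called, 13 of 13 at adjusted p under 0.01 and 5 of 5 without mutant libraries 1 and 2 had the same sign in control hearts. The interaction, with 0 calls, gave 20 with DESeq2, 1 with the replicate block, and 0 to 3 with 1 library left out. With the replicate block 61 genes were higher and 36 lower. The labels do not say whether replicate numbers pair the libraries. Deviations of same-numbered injured libraries correlated at -0.01, 0.22, 0.08 and 0.16. Differently numbered libraries were not compared, so these values cannot settle it. Over the 111 genes with values in the text and 21 settings, no difference changed sign where called. Counted as pairs of 1 gene and 1 setting, 370 lost a call, 49 gained one and 1907 stayed the same. The filter on low genes held 106 of the 111. Low genes and the shallower mutant libraries limit what could be detected.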
